A study of Mus musculus with 12 samples.

Results

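Chromatin remodellers, ARID subunits, histone demethylases, histone deacetylases and bromodomain readers were examined in retinal ganglion cells (RGCs) and in the remaining retinal cells of newborn mice that had lost the histone methyltransferase gene Ezh2 from the RGC lineage. The members were the genes present in both deposited tables whose symbols begin with Chd, Smarc, Arid, Kdm, Hdac or Brd followed by a digit, with the Y-linked Kdm5d left out. They came to 67 of the 38720 listed genes. By family they were 10 CHD, 12 SMARC, 10 ARID, 17 KDM, 11 HDAC and 7 BRD genes.

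These proteins act on nucleosomes, the units in which DNA is wrapped around histones. Chd and Smarca proteins are ATPases that slide or evict nucleosomes, and Smarcb, Smarcc, Smarcd, Smarce and several Arid proteins are further subunits of the SWI/SNF (BAF) remodeller. Kdm enzymes take methyl groups off histone lysines, Hdac enzymes take acetyl groups off, and Brd proteins bind acetylated lysines. Kdm6a and Kdm6b remove the methyl mark that Ezh2 places on lysine 27 of histone H3, and in developing neurons the BAF complex exchanges progenitor subunits for neuronal ones.

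All mice were newborn (postnatal day 0) and labelled strain C57/BL6. Retinas of mKO pups (Math5-Cre; Ezh2 flox/flox, in which Cre made from the Math5 locus removes exons of Ezh2 that encode its SET domain) were compared with WT retinas. Per the study's methods, RGCs were captured on magnetic beads against CD90 (Thy-1), and the cells left behind were kept as non-RGCs. Math5-Cre is active in only some RGCs and in a small share of all retinal cells, so both mKO fractions also hold cells with intact Ezh2. Each of the 4 groups had 3 libraries of poly-A RNA, from separate RNA extractions. Nothing says that the extractions came from separate animals, so the p-values measure the spread between these libraries. The values are normalized reads, that is, reads on a gene divided by a size factor of the library, and the libraries of a group are lettered A, B and C by falling depth.

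The libraries held 7139633 to 13014004 reads on genes, the lowest being mKO non-RGC library C. Ezh2 itself had between 1354 and 1476 normalized reads in the mKO RGC libraries and between 1190 and 1678 in WT, with a log2 fold change of 0.09 (SE 0.13, limma adjusted p = 0.637). The count covers the whole gene and not the deleted exons alone, so it checks their loss only in part. The study reported strongly reduced Ezh2 in newborn mKO RGCs by qPCR and Western blot, and a change of Ezh2 in its RNA-seq. Why no fall was seen in these values was not tested. Cell type markers differed between the genotypes. For the counts that follow, 16.3% of all tested genes rose and 21.2% fell in RGCs, and 4.18% rose and 6.43% fell in non-RGCs. Of 12 RGC markers, 10 fell in mKO RGCs, where their summed level was 23384 to 24514 against 32395 to 35033 in WT, while 8 rose in mKO non-RGCs, at 6008 to 8209 against 5635 to 5968. In RGCs, 4 of 10 progenitor, 5 of 10 photoreceptor, 4 of 8 amacrine and 3 of 7 astrocyte and Müller markers also fell and none rose. The corresponding falls in non-RGCs were 1, 4, 2 and 1. Blood markers rose (5 of 6 in either fraction). Kidney markers fell (5 of 5 in RGCs and 4 of 4 in non-RGCs), with summed levels of 131 to 207 in WT RGCs and 12.2 to 22.6 in mKO RGCs. WT RGC library C stood apart, with a summed progenitor level of 24806 against 14940 and 15816 in WT libraries A and B. In such bulk samples, fewer cells of a type and less RNA per cell cannot be told apart, and the part of these differences in the results that follow was not tested.

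In mKO RGCs, 21 of the 65 members tested fell and 9 rose, and 35 did not pass. Genes were tested when the mean of a group was at least 10 normalized reads, which left out Kdm4dl and Smarca5-ps. A member was said to rise or fall when the Benjamini-Hochberg adjusted p of limma over all 16085 tested genes was under 0.05. The falls were 32.3% of the members, against 21.2% of all tested genes that fell, and the rises 13.8%, against 16.3% of all. The changes were small, from -0.86 for Arid3c, which did not pass, to 0.63 for Arid4b on the log2 scale, with a median of -0.08 over the members and 0.00 over all tested genes. Members that also changed by at least 1.5 times were Arid4b, Kdm5a and Smarca1 among the rises (4.62%, against 7.91% of all genes) and Kdm6b among the falls (1.54%, against 5.51%). The size factors set the split between rises and falls. With scaling by total reads it was 12 and 17 members, where 23.9% of all tested genes rose and 13.9% fell. With the upper quartile it was 18 and 9, where 28.8% of all rose and 10.5% fell. These scalings moved the median of all genes by 0.12 and 0.20, so the split moved for all genes and not for the members alone. Without WT RGC library C, 11 members rose and 26 fell, and the shares of all genes in that fit are not given here.

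In mKO non-RGCs, 13 of 64 members fell and 2 rose, with 49 not passing. Kdm4d had too few reads to be tested there in addition to the 2 genes named above. The falls were 20.3% of the members, against 6.43% of the 15326 genes tested, and the rises 3.12%, against 4.18%. At a change of at least 1.5 times the falls were Arid1a, Arid1b, Hdac7, Kdm2b, Kdm4b and Kdm6b (9.38%, against 4.22% of all), and the only rise was Arid4a (1.56%, against 3.88%). The median log2 fold change was -0.23 over the members and -0.03 over all tested genes, and 52 of the 64 members lay below 0. Scaling by total reads left 2 rises and 7 falls, where 8.67% of all tested genes rose and 2.92% fell. Scaling by the upper quartile left 2 and 6, where 7.13% of all rose and 2.15% fell. The median of all genes moved by 0.17 in both. The counts of members moved more than in RGCs when single libraries were left out. They were 0 rises and 2 falls without mKO library B, 0 and 4 without WT library B, and 1 and 7 without WT library A. The shares of all genes in these fits are not given here, so these moves are not shown to be particular to the members.

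The calls of the 64 members tested in both fractions ran the same way wherever both were made, as they did for nearly all genes. Over all genes tested in both, 401 rose in both, 767 fell in both and 15 were called in opposite directions. The fractions may share preparations, so calls in both may not be independent. Arid4a and Arid4b rose in RGCs and in non-RGCs (3.12%, against 2.69% of the 14894 genes tested in both), and 12 members fell in both (18.8%, against 5.15%), namely Arid1a, Arid1b, Brd1, Brd2, Chd4, Hdac7, Kdm2b, Kdm4a, Kdm4b, Kdm6b, Smarca4 and Smarcc2. A further 16 members were called in RGCs alone (25%, against 31.4%) and 1, Kdm3b, in non-RGCs alone (1.56%, against 2.73%). No member rose in one fraction and fell in the other, as 0.101% of all genes did. The mKO libraries all lay under the lowest WT library for 28 members in RGCs (43.1%, against 28.2% of all tested genes) and for 25 in non-RGCs (39.1%, against 19.2%). They all lay over the highest WT library for 10 members in RGCs (15.4%, against 24.8%) and for 3 in non-RGCs (4.69%, against 17.5%).

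**Figure D1:**
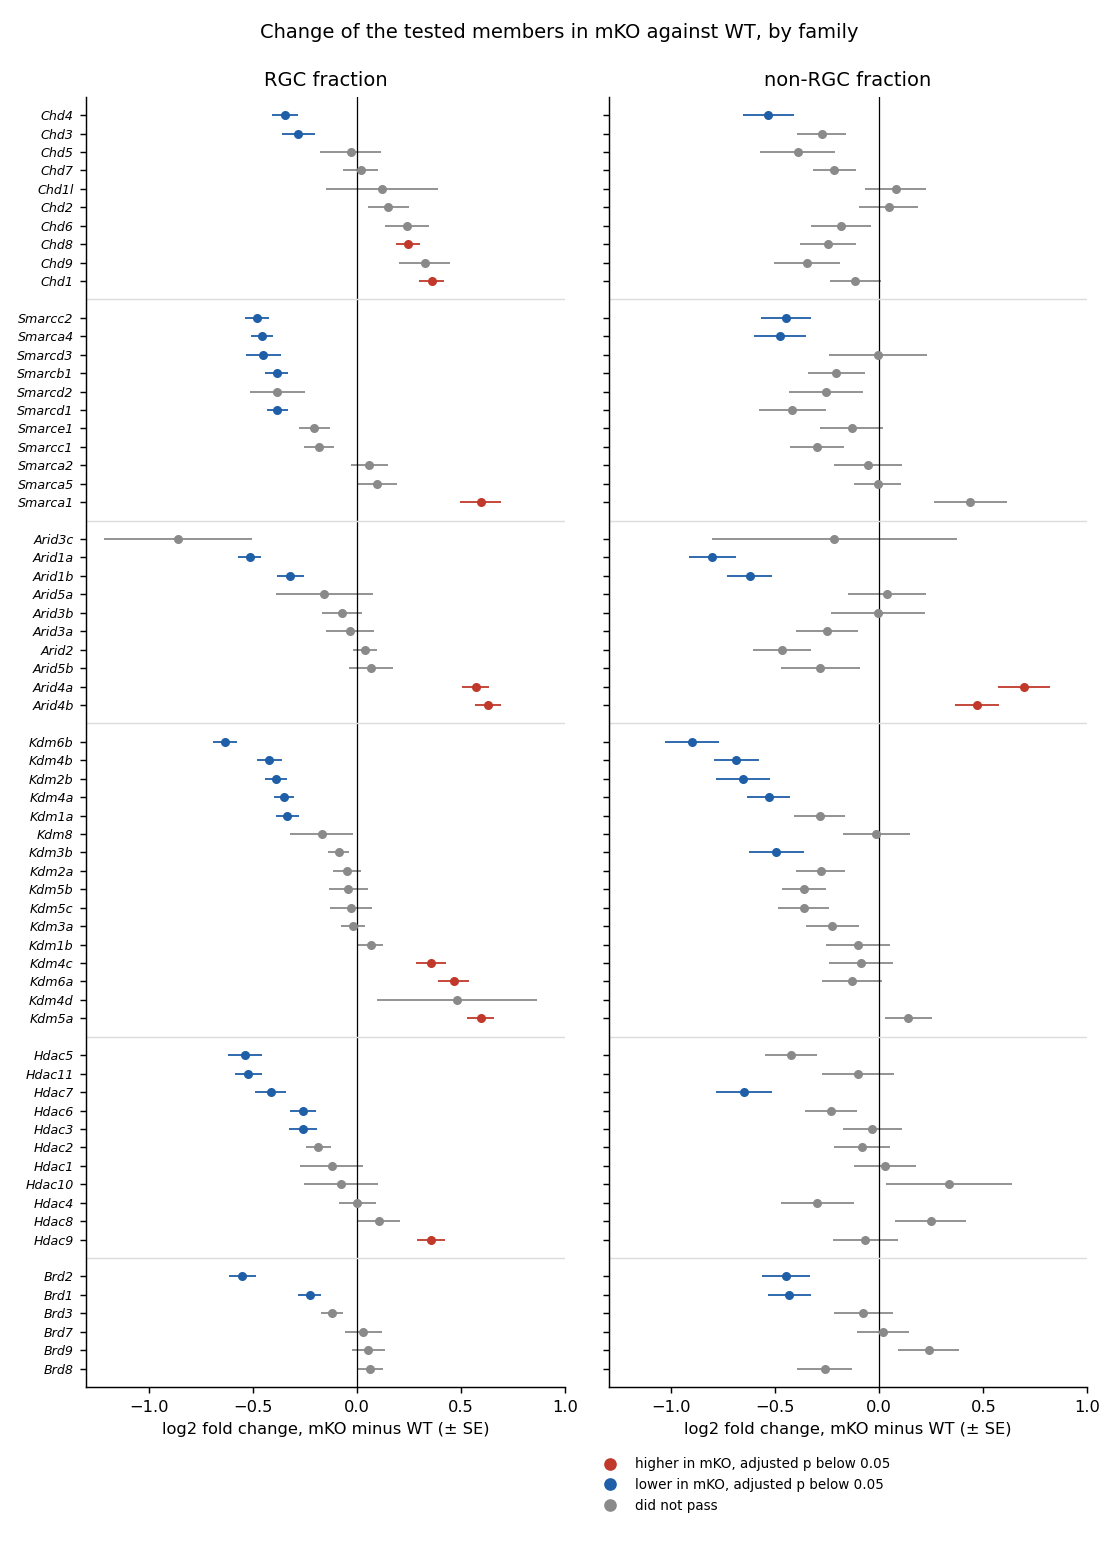
Log2 fold change of the tested members, mKO minus WT, with its standard error, in RGCs (left) and non-RGCs (right), grouped by family and ordered by the change in RGCs. Red points rose and blue points fell at a limma adjusted p under 0.05. Arid4a and Arid4b are red in both panels, and 12 members are blue in both.

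Among the CHD remodellers, Chd4 and Chd3, the ATPases of the NuRD deacetylase complex, fell in mKO RGCs, and Chd1 and Chd8 rose. Chd4 (exon GC content 53.6%) had 4870, 5104 and 5357 normalized reads in the mKO RGC libraries and 6210, 6456 and 6813 in WT, a log2 fold change of -0.35 (SE 0.06, limma adjusted p = 0.0054). The genotypes did not overlap. In non-RGCs Chd4 fell too, from 6633, 6861 and 8129 to 4582, 4692 and 5673, with a log2 fold change of -0.53 (SE 0.12, limma adjusted p = 0.0276). Chd3 changed by -0.28 (SE 0.08, limma adjusted p = 0.0282) in RGCs, and in non-RGCs its value of -0.28 did not pass (limma adjusted p = 0.151). Chd8, a remodeller mutated in some forms of autism, had 3158, 3011 and 3296 in mKO RGCs against 2651, 2773 and 2564 in WT and a log2 fold change of 0.24 (SE 0.06, limma adjusted p = 0.0156). Without mKO RGC library A or C its adjusted p was 0.0581 and 0.0678. Chd1, which binds the methyl mark of active promoters, changed by 0.36 (SE 0.06, limma adjusted p = 0.00389) in RGCs, and was at -0.12 in non-RGCs, without passing. Chd7, the gene of CHARGE syndrome, had 3924, 3898 and 4412 in mKO RGCs and 3707, 3952 and 4445 in WT, groups that overlapped throughout (log2 fold change 0.02, limma adjusted p = 0.89). Chd5, a CHD protein of neurons, had 3189, 3614 and 3918 in mKO RGCs and 4119, 4048 and 2891 in WT, where library C was the lowest of all 6.

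Of the 11 SMARC genes tested in RGCs, 5 fell (45.5%, against 21.2% of all genes), 1 rose (9.09%, against 16.3%) and 5 did not pass. Their median was -0.38, against 0.00 for all genes, and -0.02, against 0.02, once trends with the share of G and C bases in exons (GC) and with reads per exon base were taken out of each library. Smarca4 (Brg1), an ATPase of the BAF complex, had 3928, 4170 and 4191 in mKO RGCs and 5473, 5634 and 5736 in WT, a log2 fold change of -0.46 (SE 0.05, limma adjusted p = 0.00108). In non-RGCs it had 3393, 3608 and 4421 against 4899, 5201 and 5728 and changed by -0.48 (SE 0.12, limma adjusted p = 0.0401). Smarcc2, a core subunit, fell likewise, by -0.48 (SE 0.06, limma adjusted p = 0.00117) in RGCs and -0.45 (SE 0.12, limma adjusted p = 0.0431) in non-RGCs. Both genes were thus lower in every mKO library of both fractions. The other falls in RGCs were Smarcb1, another core subunit, with 1218, 1273 and 1287 against 1623, 1590 and 1728 and a change of -0.39 (SE 0.06, limma adjusted p = 0.00247), Smarcd1 at -0.38 (SE 0.05, limma adjusted p = 0.0019) and Smarcd3 at -0.45 (SE 0.08, limma adjusted p = 0.00596). With both trends removed Smarcd1 was at 0.11 in RGCs, without passing. In non-RGCs the mKO values of Smarcb1, 1147, 1333 and 1594, overlapped the WT values of 1537, 1604 and 1519. Smarce1 had 1205, 1252 and 1210 against 1368, 1308 and 1561 in RGCs, where its change of -0.20 missed the threshold (limma adjusted p = 0.07) and passed it without WT library B or C (0.0494 and 0.0401).

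Smarca1 (Snf2l), an ISWI ATPase, rose in RGCs from 932, 923 and 735 to 1303, 1267 and 1319, by 0.59 (SE 0.10, limma adjusted p = 0.00389) or 1.51 times. In non-RGCs its mKO libraries, at 471, 443 and 386, were again above WT at 339, 363 and 263, but the change of 0.44 did not pass (limma adjusted p = 0.131). Its close relative Smarca5 (Snf2h) had 1691, 1724 and 1748 against 1491, 1483 and 1886 in RGCs and did not pass (log2 fold change 0.10, limma adjusted p = 0.469). Without WT RGC library C, the highest of the 6, the change of Smarca5 was 0.21 with an adjusted p of 0.00307. Its sign turned, without passing, to -0.33 with the GC trend alone removed (limma adjusted p = 0.0577) and to -0.21 with both trends removed. Smarca2 (Brm), the alternative BAF ATPase, was at 0.06 and -0.05 in the 2 fractions, and Smarcc1 at -0.18 and -0.30, none of which passed. Smarca5-ps, listed on its own, had 2 to 12 reads in the RGC libraries and 0 to 8 in non-RGCs. Reads of such a copy can be split with Smarca5, so its values are uncertain.

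The ARID genes held both the steepest rises and some of the steepest falls. Arid4a (chr12:71015990-71098592 on mm10) and Arid4b (chr13:14063232-14199603) encode related subunits of the Sin3 deacetylase complex that also bind the retinoblastoma protein. Arid4a had 1164, 1225 and 1232 normalized reads in mKO RGCs and 830.1, 855 and 756 in WT, a log2 fold change of 0.57 (SE 0.07, limma adjusted p = 0.00112) or 1.48 times. In non-RGCs it had 1726, 1580 and 1939 against 1163, 1061 and 1008 and changed by 0.70 (SE 0.13, limma adjusted p = 0.0135) or 1.62 times. In both fractions each mKO library lay above each WT library. Without mKO or WT non-RGC library B its adjusted p was 0.061 and 0.0579, with a change of 0.77 and 0.69. Arid4b rose from 1673, 1672 and 1508 to 2432, 2470 and 2605 in RGCs, by 0.63 (SE 0.06, limma adjusted p = 0.00078), and from 2010, 2097 and 2087 to 2846, 2664 and 3091 in non-RGCs, by 0.47 (SE 0.11, limma adjusted p = 0.0261). The non-RGC call was lost without mKO library B, WT library A or WT library B, at adjusted p-values of 0.101, 0.0796 and 0.0963.

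Arid1a and Arid1b, mutually exclusive DNA-binding subunits of the canonical BAF complex, moved the other way. Arid1a had 4404, 4276 and 4652 in mKO RGCs and 6282, 6491 and 6290 in WT, a log2 fold change of -0.52 (SE 0.05, limma adjusted p = 0.000876). In non-RGCs it fell from 6731, 6669 and 7571 to 4444, 4044 and 3563, by -0.80 (SE 0.11, limma adjusted p = 0.00706) or 1.74 times. Arid1b changed by -0.32 (SE 0.07, limma adjusted p = 0.00876) in RGCs and by -0.62 (SE 0.11, limma adjusted p = 0.0122) in non-RGCs. Arid2, the corresponding subunit of the PBAF form, had 3361, 3326 and 3519 against 3160, 3307 and 3489 in RGCs, with no separation. In non-RGCs its mKO libraries, at 3515, 2905 and 2747, lay below WT at 3918, 3794 and 4976, and its change of -0.47 did not pass (limma adjusted p = 0.0616). The 5 remaining ARID genes, Arid3a, Arid3b, Arid3c, Arid5a and Arid5b, did not pass in either fraction.

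Of the histone demethylases, 5 of 16 fell (31.2%, against 21.2% of all genes) and 3 rose (18.8%, against 16.3%) in RGCs, and 5 of 15 fell (33.3%, against 6.43%) and none rose in non-RGCs. Kdm6b (chr11:69398508-69413675), an H3K27 demethylase, fell the most of the members that passed. It had 1993, 1989 and 2188 in mKO RGCs and 3218, 3256 and 3108 in WT, a log2 fold change of -0.64 (SE 0.06, limma adjusted p = 0.000657) or 1.55 times lower. In non-RGCs it had 2064, 1990 and 1610 against 3642, 3719 and 3164 and changed by -0.90 (SE 0.13, limma adjusted p = 0.00709). Kdm6a (Utx), the X-linked enzyme for the same mark, rose in RGCs from 974, 1147 and 1051 to 1519, 1391 and 1465, by 0.47 (SE 0.07, limma adjusted p = 0.00356). In non-RGCs the Kdm6a values, 1765, 1629 and 1301 in mKO and 1523, 1850 and 1738 in WT, overlapped, and the change of -0.13 did not pass. The 2 H3K27 demethylases thus had opposite calls in RGCs. Neither call was kept with the GC trend removed (Kdm6b -0.15, limma adjusted p = 0.148, and Kdm6a 0.17, 0.149) or with both trends removed, where Kdm6a was at 0.18 (0.153).

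Kdm2b (chr5:122870665-122989823), which binds unmethylated CpG-rich DNA and belongs to a variant polycomb repressive complex 1, had 1260, 1296 and 1356 in mKO RGCs and 1767, 1682 and 1674 in WT. Its log2 fold change was -0.39 (SE 0.05, limma adjusted p = 0.00216). In non-RGCs it fell from 1380, 1391 and 1438 to 1002, 910.2 and 777, by -0.65 (SE 0.13, limma adjusted p = 0.0185), and the genotypes were separate in both fractions. Leaving out mKO or WT non-RGC library B ended the non-RGC call (adjusted p = 0.0937 and 0.0713). Among the H3K9 and H3K36 demethylases of the Kdm4 group, Kdm4a (-0.35 in RGCs, -0.53 in non-RGCs) and Kdm4b (-0.42 and -0.69) fell in both fractions, and Kdm4c rose in RGCs, by 0.36 (SE 0.07, limma adjusted p = 0.00942). Their exon GC contents were 53.6%, 58.8% and 41.8%, and with both trends removed they were at 0.03, 0.13 and 0.09 in RGCs, none passing.

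Kdm5a, an H3K4 demethylase that binds the retinoblastoma protein, rose in RGCs. It had 2485, 2469 and 2637 against 1559, 1765 and 1709 there, a log2 fold change of 0.59 (SE 0.06, limma adjusted p = 0.000924). In non-RGCs the values overlapped, with 3072, 2811 and 3015 in mKO and 2484, 2604 and 3020 in WT (log2 fold change 0.14). Kdm1a (LSD1), the H3K4 demethylase of the CoREST complex, fell in RGCs, by -0.33 (SE 0.06, limma adjusted p = 0.00389), and in non-RGCs was at -0.29 (limma adjusted p = 0.154). Kdm5c, another X-linked H3K4 demethylase, did not pass in either fraction (-0.03 and -0.36). Kdm3b, an H3K9 demethylase, changed by -0.49 (SE 0.13, limma adjusted p = 0.0432) in non-RGCs. Kdm4dl had no more than 3 reads in any of the 6 non-RGC libraries, so no fold is given for it there.

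Of the 11 deacetylases, 5 fell (45.5%, against 21.2% of all genes) and 1 rose (9.09%, against 16.3%) in RGCs, and 1 fell in non-RGCs (9.09%, against 6.43%). Hdac5, a class II enzyme that shuttles between nucleus and cytoplasm in neurons, had 2071, 2266 and 2385 in mKO RGCs and 3279, 2975 and 3513 in WT, a change of -0.54 (SE 0.08, limma adjusted p = 0.00285). In non-RGCs every mKO library of Hdac5 was again below every WT library, but its change of -0.42 did not pass (limma adjusted p = 0.0603). Hdac11, the class IV enzyme, changed by -0.52 (SE 0.06, limma adjusted p = 0.00134) and Hdac6, the tubulin deacetylase, by -0.26 (SE 0.06, limma adjusted p = 0.0184). Hdac7 fell in both fractions, by -0.41 (SE 0.07, limma adjusted p = 0.00538) in RGCs and -0.65 (SE 0.13, limma adjusted p = 0.021) in non-RGCs. Hdac9 was the one rise, at 0.35 (SE 0.07, limma adjusted p = 0.00712), and with both trends removed it was at -0.09, without passing. Of the class I enzymes, Hdac3, the enzyme of the NCoR complexes, changed by -0.26 (SE 0.07, limma adjusted p = 0.0228) in RGCs and lost its call without any of mKO RGC libraries A, B or C or WT library A (adjusted p from 0.0506 to 0.0879). Hdac2 had 1691, 1724 and 1734 in mKO RGCs, below the WT values of 1857, 1905 and 2104, and just missed the threshold (-0.19 (SE 0.06, limma adjusted p = 0.0502)). Its adjusted p was 0.0242 without WT library C, and with the GC trend alone removed it fell by -0.53 (SE 0.06, limma adjusted p = 0.0032). With both trends removed it was at -0.21 (limma adjusted p = 0.0743). Hdac1 had 585, 655 and 636 in mKO RGCs and 585, 618 and 871 in WT, where library C alone lay above all mKO libraries.

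Among the bromodomain readers, Brd2, a BET protein that binds acetylated histone H4, fell in both fractions. It had 3566, 3650 and 3583 in mKO RGCs and 4995, 5127 and 5727 in WT, a log2 fold change of -0.55 (SE 0.06, limma adjusted p = 0.00112), and changed by -0.45 (SE 0.11, limma adjusted p = 0.037) in non-RGCs. Brd1, a subunit of histone acetyltransferase complexes, changed by -0.23 (SE 0.05, limma adjusted p = 0.0166) and -0.43 (SE 0.10, limma adjusted p = 0.0306). Brd3, another BET protein, did not pass in RGCs (-0.12) or non-RGCs (-0.08).

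**Figure D2:**
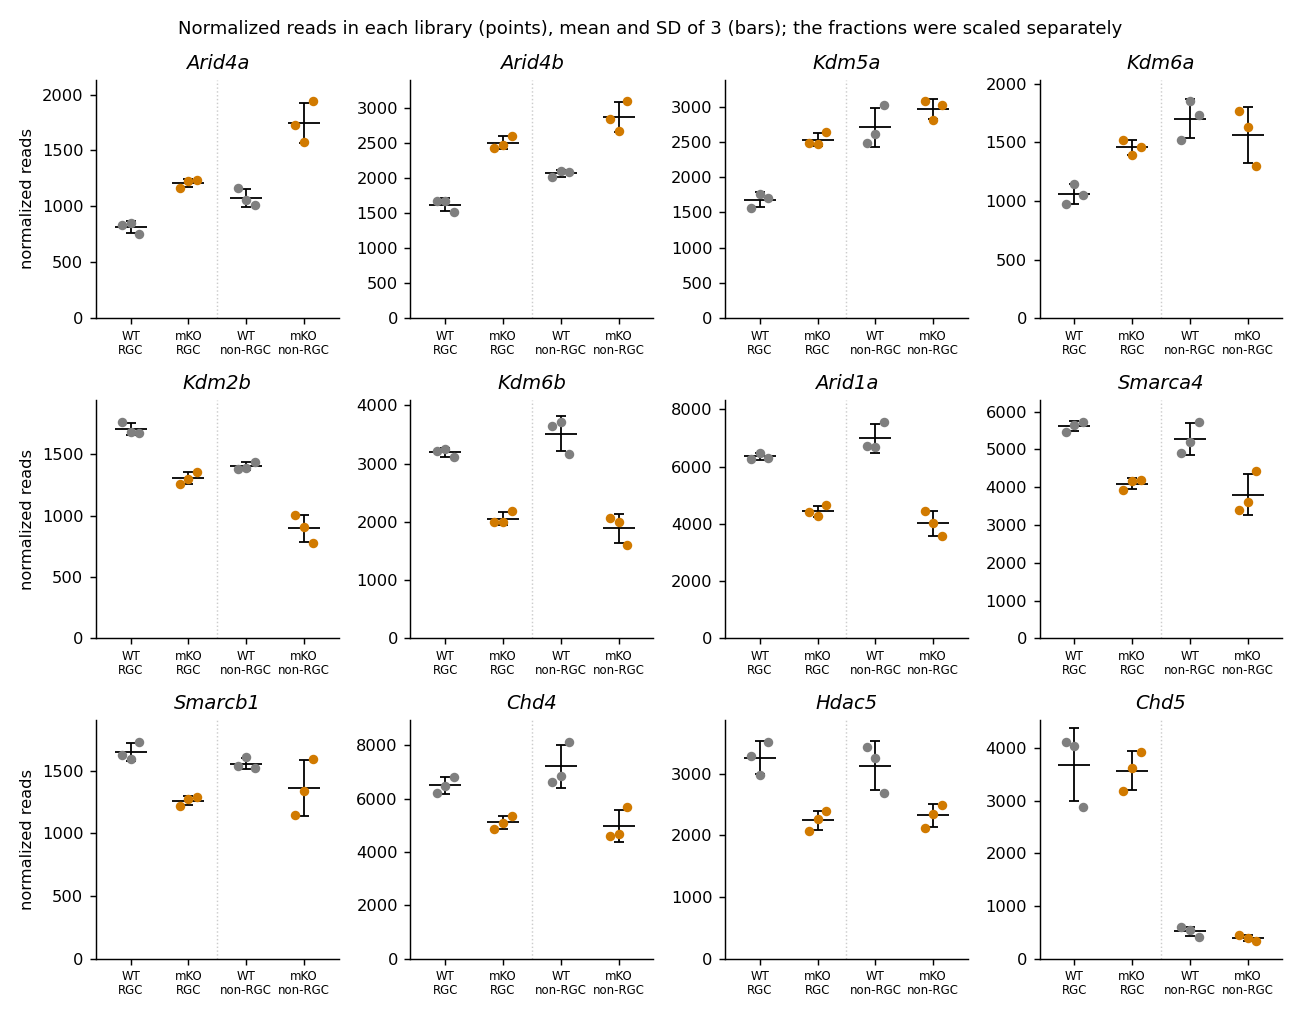
Normalized reads of 12 members in each library (points), with the mean and SD of 3 libraries (black bars), WT in grey and mKO in orange. Scales start at 0 and differ between genes, and the 2 fractions were scaled separately. Arid4a, Arid4b, Kdm2b, Kdm6b, Arid1a, Smarca4, Chd4 and Hdac5 are separate between the genotypes in both fractions.

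The direction of a member's change went with the base composition of its transcript. Over the 65 members in RGCs, Spearman's rho between the log2 fold change and the share of G and C bases in exons was -0.78, and over the 12797 genes averaging 50 normalized reads or more it was -0.72. In non-RGCs the values were -0.43 over 64 members and -0.49 over 12231 genes. These are descriptions across genes, which share libraries and are not independent. Members that fell in RGCs had 47.3% to 59.8% GC (median 55.5%) and those that rose 38.3% to 46.3% (median 41.9%), so the ranges did not meet. Smarca1 (38.3%) and Arid4b (40%) stood at the AT-rich end among the rises, and Hdac7 (59.8%), Kdm6b (59%) and Brd2 (57.6%) at the GC-rich end among the falls. Of 15 members at 55% GC or more, 11 fell and none rose in RGCs, where 49.3% of all genes in that band fell. Of 15 members under 45% GC, 7 rose and none fell, where 44.4% of all genes rose. In non-RGCs the 15 members under 45% GC had a median of -0.08, against 0.20 for the 3936 genes of that band.

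When 2 trends, with exon GC content and with reads per exon base, were taken out of each library before the test, far fewer members passed. In RGCs 3 rose (4.62%, against 2.36% of all genes) and 3 fell (4.62%, against 4.27%), and in non-RGCs 1 rose (1.56%, against 0.92%) and 1 fell (1.56%, against 0.913%). Of the 30 calls in RGCs, 4 were kept, namely Arid4a, Kdm5a, Kdm2b and Smarcb1, and of the 15 in non-RGCs, Arid4a and Kdm2b. Arid4a changed by 0.48 (SE 0.07, limma adjusted p = 0.0163) in RGCs and by 0.71 (SE 0.11, limma adjusted p = 0.0293) in non-RGCs. Kdm2b changed by -0.32 (SE 0.05, limma adjusted p = 0.0248) and -0.60 (SE 0.11, limma adjusted p = 0.0407). Both thus kept their direction and call in both fractions under both tests, and their exon GC contents of 46.3% and 50.6% lay near the middle of the members' range. With upper-quartile scaling Kdm2b missed the threshold in RGCs (-0.19, adjusted p = 0.0638) and non-RGCs (-0.49, 0.0733). Kdm5a was at 0.30 (SE 0.06, limma adjusted p = 0.0337) and Smarcb1 at -0.30 (SE 0.05, limma adjusted p = 0.0248) in RGCs. Smarce1, which had not passed before the trends were removed, fell by -0.33 (SE 0.07, limma adjusted p = 0.0438). Brd3 rose in it, at 0.23 (SE 0.05, limma adjusted p = 0.0406), although its normalized reads were 2678, 2827 and 2894 in mKO RGCs and 2999, 3033 and 3091 in WT, every mKO library being the lower.

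With the GC trend alone removed some of the calls were different. Arid4a and Kdm5a rose in RGCs (3.08%, against 5.38% of all genes), and Arid1a, Hdac2, Hdac3, Kdm1a, Kdm2b, Smarcb1 and Smarce1 fell (10.8%, against 9.04%). In non-RGCs Arid4a rose (1.56%, against 1.02%) and Arid1a fell (1.56%, against 0.685%). Arid1a thus kept its call in both fractions in this test, at -0.28 (SE 0.06, limma adjusted p = 0.0307) and -0.64 (SE 0.12, limma adjusted p = 0.0446). Kdm1a was at -0.38 (SE 0.05, limma adjusted p = 0.00759) in RGCs, and Smarce1 at -0.34 (SE 0.07, limma adjusted p = 0.0249). Kdm2b missed the threshold in non-RGCs (-0.56, limma adjusted p = 0.0627) and Brd3 in RGCs (0.11, 0.201).

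The values of the largest falls shrank when both trends were removed. Kdm6b in RGCs went from -0.64 to -0.12 (limma adjusted p = 0.284), Arid1a from -0.52 to -0.13 (0.226) and Brd2 from -0.55 to -0.00 (0.971). Smarca4, Smarcc2, Chd4, Hdac7 and Kdm4b went from below 0 to between 0.02 and 0.13 and did not pass. In non-RGCs Kdm6b was still at -0.48 and Arid1a at -0.55, with adjusted p-values of 0.134 and 0.104. The median of the members became 0.00 in RGCs, against 0.02 for all genes, and -0.12 in non-RGCs, against 0.03. Arid4b went to 0.25 in RGCs (0.0636) and 0.26 in non-RGCs (0.162). With both trends removed, the 6 calls in RGCs held with WT library C left out and were lost when any other library was left out, at adjusted p-values up to 0.169 for Smarce1 and 0.0999 for Arid4a, while the size for Arid4a stayed between 0.42 and 0.52. In non-RGCs the call for Arid4a held in 3 of 6 such fits and that for Kdm2b in 2 of 6. Arid4a lost it without mKO library B or C or WT library B, and Kdm2b without those or WT library A.

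**Figure D3:**
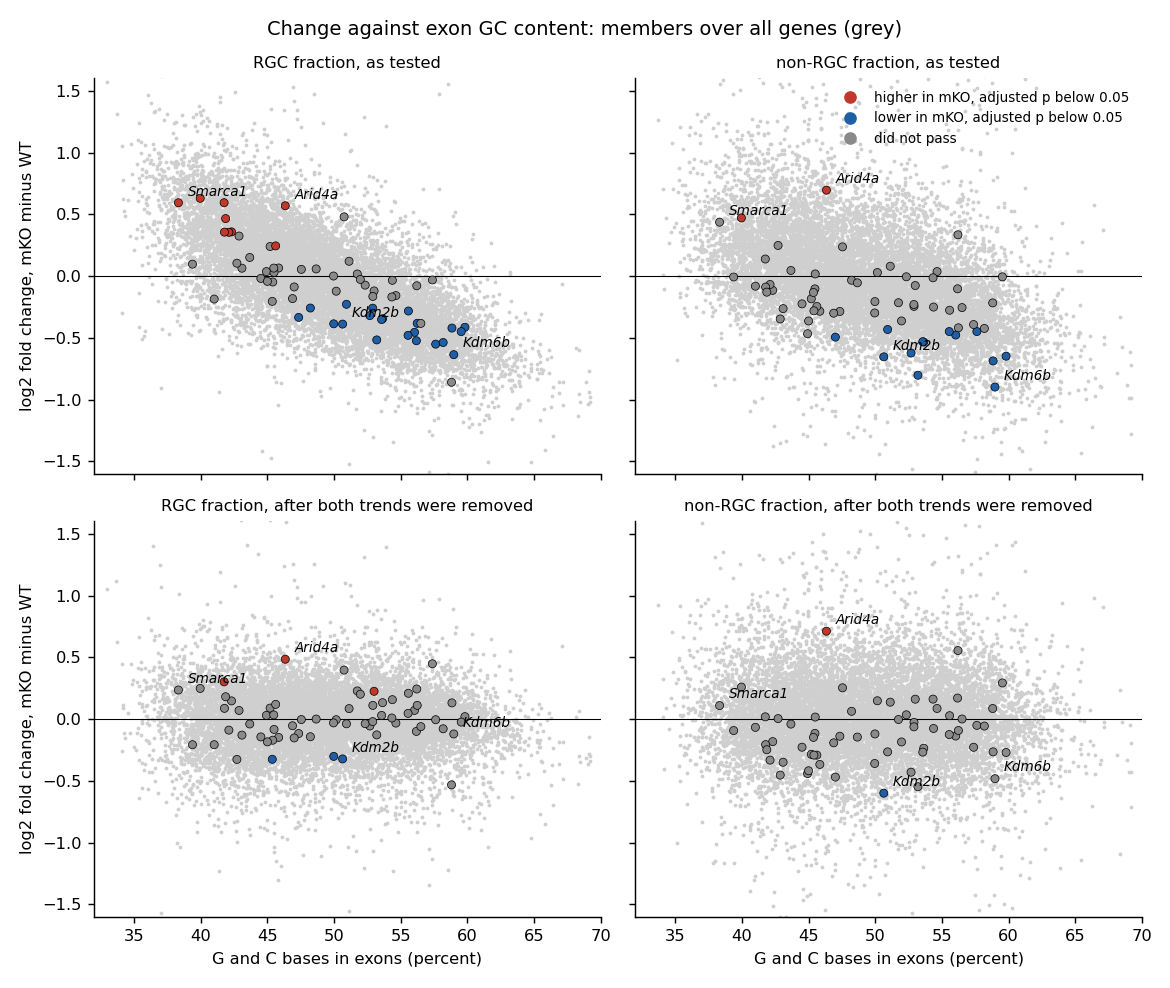
Log2 fold change, mKO minus WT, against the percentage of G and C bases in exons, for every gene averaging 50 normalized reads or more (grey) and for the tested members (large points, coloured by call), in RGCs (left) and non-RGCs (right), as tested (top) and after removal of both trends (bottom). The downward slope of the upper panels is gone in the lower ones, where Arid4a remains high and Kdm2b low in both fractions. The vertical axis stops at 1.6 in either direction.

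Promoter sequences are shown for those of the 6 members called in RGCs after both trends were removed that the RefSeq promoter table holds, 3 of the 6. The others are Arid4a, Kdm5a and Smarce1. The table (GRCm38.p6) spans 250 bases before to 50 bases after a gene's start and matched 47 of the 67 members. CG dinucleotides, the letters that Kdm2b binds when unmethylated, are in capitals. Brd3 (chr2:27475349-27475648, minus strand) had 46 CG, Smarcb1 (chr10:75921565-75921864, minus strand) 27 and Kdm2b (chr5:122988458-122988757, minus strand, 1 of 4 starts listed) 18. At least as many were in 1.61%, 15.4% and 30.1% of the 27025 promoters with different symbols, of which 94.2% held any CG. The 47 members had a median of 24, against 7 over all promoters, with from 0 in Kdm4c to 48. All promoters include those of genes that were not tested here, so the 2 medians are of unlike sets.
Brd3: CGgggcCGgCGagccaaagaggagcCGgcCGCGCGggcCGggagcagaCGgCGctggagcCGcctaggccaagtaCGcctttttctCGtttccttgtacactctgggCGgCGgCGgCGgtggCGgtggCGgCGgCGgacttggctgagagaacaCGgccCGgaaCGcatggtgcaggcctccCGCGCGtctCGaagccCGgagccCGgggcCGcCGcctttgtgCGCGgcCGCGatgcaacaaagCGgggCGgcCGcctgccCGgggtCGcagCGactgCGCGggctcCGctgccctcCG
Smarcb1: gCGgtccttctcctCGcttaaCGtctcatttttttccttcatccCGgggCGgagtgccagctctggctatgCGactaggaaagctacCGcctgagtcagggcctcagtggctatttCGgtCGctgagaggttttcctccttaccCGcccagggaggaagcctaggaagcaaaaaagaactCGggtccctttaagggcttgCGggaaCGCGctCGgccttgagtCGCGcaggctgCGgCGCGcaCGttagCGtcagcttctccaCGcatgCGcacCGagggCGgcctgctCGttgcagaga
Kdm2b: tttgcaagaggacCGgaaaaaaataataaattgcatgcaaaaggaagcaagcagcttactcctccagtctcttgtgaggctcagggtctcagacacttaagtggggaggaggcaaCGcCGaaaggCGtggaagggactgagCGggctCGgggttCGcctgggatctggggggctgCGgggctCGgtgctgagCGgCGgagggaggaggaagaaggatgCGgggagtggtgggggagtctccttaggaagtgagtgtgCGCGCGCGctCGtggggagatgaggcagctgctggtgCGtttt
Brd3 and Smarcb1 lay above the members' median and Kdm2b below it.

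Whether the mKO effect differed between the fractions was tested as the difference of the within-fraction log2 fold changes. The test treated the 12 libraries as independent. The non-RGCs were the cells left by the RGC capture, so the fractions may share preparations, which could not be paired. No member of 64 passed at a limma adjusted p under 0.05, where 0.107% of the 14894 genes did, and 16 members had an unadjusted p under 0.05 (25%, against 10.1% of all genes). After both trends were removed the counts were 0, against 0.0873% of all genes, and 14 (21.9%, against 10.8%). The smallest adjusted p was 0.358, for Kdm5a, whose changes were 0.59 in RGCs and 0.14 in non-RGCs. Calls made in one fraction alone, such as those of Kdm6a, Chd1, Hdac9 and Kdm3b, are therefore not shown to be particular to it. Without mKO non-RGC library A, 2 members passed, and the share of all genes in that fit is not given here.

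Between the WT fractions the members' levels were set side by side as RPKM (reads over kilobases of exon, scaled to the reads on genes of the library), with no test, since the 2 tables were normalized separately. In WT RGCs the levels ran from 1.04 for Arid5a to 77.5 for Smarcc2 among the 64 members tested in both fractions, with a median of 15.7. The highest of each family were Smarcc2 (77.5 ± 2.02, SD, n = 3), Chd4 (64.7 ± 3.5), Brd2 (54 ± 4.48), Arid1a (44.3 ± 0.428), Kdm1a (43.2 ± 2.54) and Hdac2 (35 ± 2.66). Kdm4b, at 43.1 ± 2.4, was not separate from Kdm1a. For 35 members (54.7%, against 34.1% of all genes) every WT RGC library was below every WT non-RGC library, for 6 (9.38%, against 24.5%) every one was above, and 23 overlapped.

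The 6 with the higher RGC level were Chd3, Chd5, Hdac11, Kdm2b, Smarca1 and Smarcd3. Chd5 had 30.7 ± 5.51 in WT RGCs and 4.84 ± 0.958 in WT non-RGCs, 6.34 times as much, the largest ratio of the members tested in both fractions. Smarca1 was 2.39 times, Smarcd3, a subunit of the neuronal BAF complex, 2.32 times, Hdac11 2.01 times, Chd3 1.42 times and Kdm2b only 1.09 times as high. Chd4, another NuRD ATPase, was the other way round, at 64.7 ± 3.5 in RGCs and 80.1 ± 6.54 in non-RGCs. Its level in WT RGCs was still above those of Chd3 (52.6) and Chd5. Chd7 was 1.86 times as high in non-RGCs, Chd1 1.93 times and Kdm5a 1.8 times. Arid5a, at 1.04 ± 0.371 and 2.57 ± 0.508, was the lowest in both. Of the 6 members with the higher RGC level, Hdac11, Kdm2b, Smarcd3 and Chd3 fell in mKO RGCs, where 21.2% of all genes fell. Smarca1 rose and Chd5 did not pass. With both trends removed Kdm2b alone passed, and Hdac11, Smarcd3 and Chd3 were at -0.10, -0.02 and 0.21. Of the members with the higher non-RGC level, Arid1a, Arid1b, Brd1, Chd4, Kdm1a, Kdm4a and Kdm6b fell in mKO RGCs too, and Arid4a, Arid4b, Chd1, Chd8, Kdm4c, Kdm5a and Kdm6a rose. The summed RGC markers were lower there. In mKO non-RGCs, where the summed RGC markers were higher, Kdm2b fell too and the other 5 of the 6 did not pass. The part of the makeup of the fractions in these changes was not tested.

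**Figure D4:**
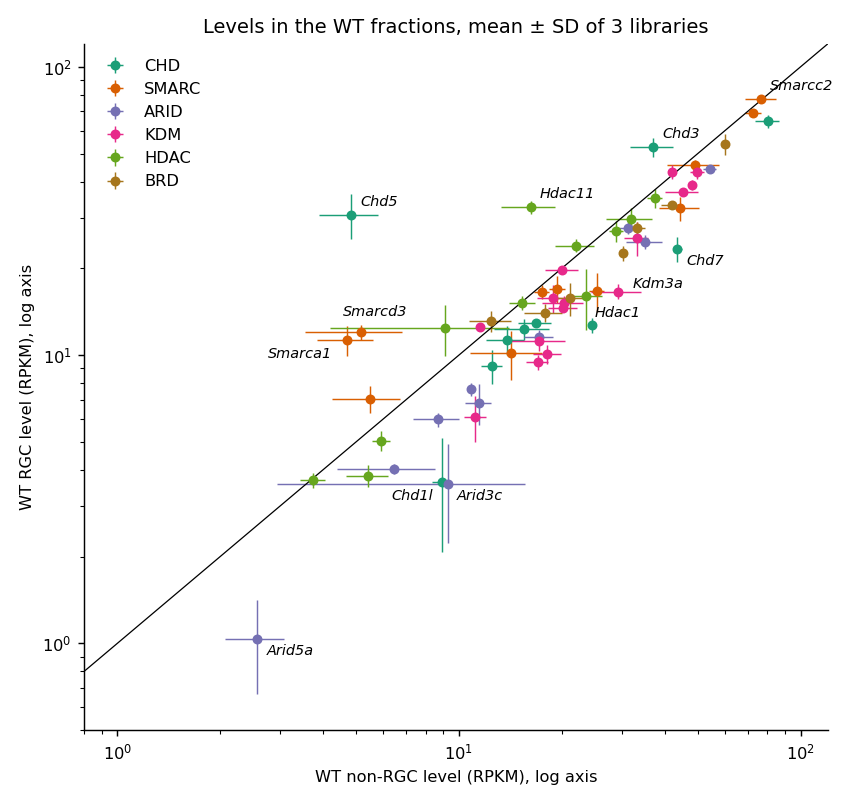
Level of the 64 members tested in both fractions in WT RGCs against WT non-RGCs, in RPKM, on log axes, as mean and SD of 3 libraries and coloured by family. Most points lie below the line of equal levels, and Chd5, Smarca1, Smarcd3, Hdac11 and Chd3 are among those above it.

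Of the members, Kdm5c, Kdm6a, Hdac6, Hdac8 and Smarca1 lie on the X chromosome, and Kdm5c and Kdm6a are known to escape X inactivation in mice. The libraries also differed in genes of the sex chromosomes. Xist, the RNA of the inactive X, had 4909, 4643 and 7160 in mKO RGCs and 1195, 3465 and 2108 in WT, a log2 fold change of 1.41 (SE 0.37, limma adjusted p = 0.0222), and the Y-linked Ddx3y had 464, 586 and 567 and 554, 207 and 568. Eif2s3y was at -0.13 and Uty at 0.32, and neither passed. Among the WT RGC libraries, Kdm6a and Kdm5c (1963, 2610 and 2237) had the order of Xist, while Smarca1 was highest in A, where Xist was lowest. In the other groups the full orders differed. Xist was highest in mKO RGC library C and Kdm6a in A. In WT non-RGCs Xist was highest in library C (2559, 3494 and 4835) and Kdm6a and Kdm5c in B. In mKO non-RGCs Xist had 5597, 5683 and 3303, and Kdm6a was highest in A. The library lowest in Xist was, however, also the lowest in Kdm6a in each of the 4 groups, and in Kdm5c in each group but mKO RGCs. In non-RGCs Xist was at 0.43 (limma adjusted p = 0.288). The part of the sex of the pups in the rise of Kdm6a and Smarca1 in RGCs was not tested.

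Genes of the same complexes outside the rule were counted from lists written with earlier results of these data known. Of 23 partners of Hdac1 to Hdac3, Chd3 to Chd5 and Kdm1a in the NuRD, Sin3, CoREST and NCoR complexes, 13 fell (56.5%, against 21.2% of all genes) and 1 rose (4.35%, against 16.3%) in RGCs (median -0.28), and 5 fell in non-RGCs (21.7%, against 6.43%; median -0.25). Their median exon GC content was 51.6%, and with both trends removed 2 fell in either fraction and none rose. Rcor2, Mta1 and Gatad2a were among those that fell in both. Gatad2b, a NuRD subunit, was at -0.17 in RGCs, without passing, and fell by -0.91 in non-RGCs, and with both trends removed it fell in both (-0.50 and -1.12). Of 15 further SWI/SNF subunits, 7 fell (46.7%) and 2 rose (13.3%) in RGCs and 3 fell (20%) in non-RGCs (medians -0.23 and -0.28). With both trends removed 1 rose and 1 fell in RGCs and none passed in non-RGCs. Of 4 neuron-specific subunits, Actl6b (-0.46) and Dpf1 (-0.36) fell in RGCs, and of 4 progenitor-specific ones, Dpf2 (-0.23) fell and Phf10 (0.24) rose. Of all genes, 21.2% fell and 16.3% rose there. In WT, Actl6b was 2.35 times as high in RGCs as in non-RGCs, and Actl6a, which it replaces in neurons, 1.62 times as high in non-RGCs.

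Of 21 other remodelling ATPases and their partners (ISWI, INO80, SRCAP and Snf2 relatives), 10 rose (47.6%, against 16.3% of all genes) and none fell in RGCs (median 0.21), and 2 rose in non-RGCs (9.52%, against 4.18%; median -0.10). Their median exon GC content was 45.3%, against 49.4% for all genes averaging 50 normalized reads or more. Of all genes, 44.4% rose in RGCs under 45% GC and 13.8% at 45% to 50% GC, and the list spans this edge. Baz1a, an ISWI partner, rose in both fractions, by 0.68 (SE 0.09, limma adjusted p = 0.00196) and 0.53 (SE 0.13, limma adjusted p = 0.0344), and Hells by 0.73 and 0.53. With both trends removed, Baz1a (0.43) and Btaf1 (0.32) still rose in RGCs. Of 23 other bromodomain proteins and acetyltransferases, 6 rose (26.1%, against 16.3% of all genes) and 8 fell (34.8%, against 21.2%) in RGCs. In non-RGCs 1 rose and 1 fell (4.35% each, against 4.18% and 6.43%). The same shares of all genes apply to the 2 lists that follow. The counts were 2 rises and 2 falls of 11 other JmjC proteins in RGCs, with 1 of each in non-RGCs, and 1 rise and 2 falls of 7 sirtuins in RGCs, with none in non-RGCs.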

How the data were processed

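RNA of RGC and non-RGC fractions was sequenced in 12 libraries. Per the labels, the authors aligned reads to mm10 with STAR 2.3.1z4 and counted them with featureCounts. The labels also carry the term dedup, so duplicate reads may have been removed before counting. The part of this in the levels and fold changes was not tested. In the 2 deposited tables the authors give the signal of a gene as the mean, over 3 libraries, of its reads divided by DESeq size factors. Their columns of fold changes, p-values and pooled means were not used.

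The reads of each library were recovered from the digits of the group means by exact lattice reduction, which gave 1 solution for 100% of genes with reads in each group and was tested on simulated data. Which library is which replicate is not given by the tables. The recovered reads over the authors' size factors were tested within each table with limma 3.58.1 (R 4.3.3) on log2(value + 1), with a mean-variance trend and Benjamini-Hochberg adjustment, over genes with a group mean of at least 10. Fold changes on this scale understate low genes. An exact permutation p could not go under 0.1 in this design. Exon length and GC content are from GENCODE M21 on GRCm38 (symbols matched 35654 ids and synonyms 1764). Trends were removed per library by lowess over a share of 0.3 of genes, or over 300 neighbouring genes, fitted on genes with a mean of at least 50. Leaving out each library after both trends were removed was chosen after seeing the data. Alternatives covered the pseudocount, filters, scalings, trends, voom and leaving out each library.

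The members and lists were chosen with earlier results of these data known. Named members were those called at a change of at least 1.5 times, called after trend removal, called for a difference between fractions, highest in their family, at 3 reads or fewer throughout a group, or among 21 well-studied members. Others are named to account for the remaining members. Python 3.11.15 was used. Certain genes counted in the totals are not reported here by name.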

Additional observations from a re-analysis of the deposited data

How the results depend on the processing

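The counts of members called moved by over 1.5 times under the settings that follow. The shares of all tested genes under the 2 scalings and each trend removal stand beside the counts in the results above. Those for the fits without 1 library are not given. In RGCs, against 9 rises and 21 falls, they were 18 and 9 with upper-quartile scaling, 2 and 7 with the GC trend removed, 3 and 3 with the GC and reads-per-base trends removed, 3 and 1 with a fold change of at least 1.5 added and 3 and 2 with that fold change at an unadjusted p. Leaving out 1 library gave 8 to 11 rises and 17 to 26 falls. The median of -0.08 went to 0.044 (total reads), 0.12 (upper quartile), -0.025 (GC) and -0.0047 (GC and reads per base), and to between -0.13 and -0.065 without 1 library. In non-RGCs, against 2 rises and 13 falls, falls were 7 (total reads), 6 (upper quartile), 8 (voom), 5 (no mean-variance trend), 20 (1 fit of 4 groups), 1 with either trend removal, and 6 with either rule on fold change. The voom setting scaled by the total reads of the tested genes in place of the size factors, so its count includes that change of scaling. Rises were 1 without the mean-variance trend, with either trend removal and with either fold rule. Leaving out 1 library gave 0 to 2 rises and 2 to 13 falls. The median of -0.23 went to -0.056 (total reads), -0.0595 (upper quartile), -0.18 (GC) and -0.12 (GC and reads per base), and to between -0.24 and -0.21 without 1 library. Members whose effect differed between the fractions numbered 0 to 2 without 1 library and 0 otherwise. The other pseudocount and filters on low values kept each of these counts within 1.5 times.

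Of the members named by rule that passed before or after trend removal, some changed sign in RGCs. Sign changes of members that passed in neither, such as Smarca5, are not listed here. With both trends removed Brd3 was at 0.23, Chd4 at 0.13, Hdac7 at 0.0199, Kdm4b at 0.13, Smarca4 at 0.0709 and Smarcc2 at 0.0464, and with the GC trend alone Hdac7 was at 0.10 and Kdm4b at 0.055. Called members outside that rule changed sign too, without passing. With both trends removed Chd3 was at 0.21, Kdm4a at 0.03, Smarcd1 at 0.11 and Hdac9 at -0.09. With the GC trend alone Chd3 was at 0.058 and Smarcd3 at 0.057. The cause was not tested. No paired analysis was possible because the tables carry no replicate numbers. The standard error of a member's log2 fold change had a median of 0.07 in RGCs and 0.13 in non-RGCs, so a change of a given size was called less readily in non-RGCs. The part of depth in this was not tested.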

Other observations

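The members not described so far did not pass in either fraction. Among the CHD genes, the long transcripts of Chd2, Chd6 and Chd9 were at 0.15, 0.24 and 0.32 in RGCs, and every mKO RGC library of Chd9 (3400, 2956 and 3600) lay above every WT library (2820, 2932 and 2230), with a limma adjusted p of 0.0729. In non-RGCs Chd9 was at -0.35, also without passing (limma adjusted p = 0.175). The demethylases Kdm2a, Kdm3a and Kdm1b were within 0.07 of 0 in RGCs, at -0.05, -0.02 and 0.06. Kdm5b was at -0.04 in RGCs and at -0.36 in non-RGCs, where it missed the threshold (limma adjusted p = 0.0565). The class II deacetylase Hdac4 was at 0.00 in RGCs and -0.30 in non-RGCs.

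Some members of low level were moved by 1 library. Chd1l had 154, 142 and 287 normalized reads in the WT RGC libraries, Arid5a 127, 134 and 228 and Arid3c 61.8, 63 and 112, each with library C far above A and B. In WT non-RGC libraries Arid3c had 269.8, 233 and 41.7, Hdac10 541, 275 and 207 and Arid3b 676, 666 and 375, each with library C the lowest.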
